A study of Mus musculus with 9 samples.

Results

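Liver macrophages sorted from mice 24 h after partial hepatectomy (PHx), the surgical removal of about 70% of the liver, were compared with macrophages sorted at 0 h. The 24 h and 0 h groups have 3 libraries each, which are 6 of the 9 libraries of the series and were taken by their time labels. The comparison covers the 18833 genes, of 56691 in the count table, that passed a filter on low counts in these 6 libraries. The mice were male C57BL/6 animals of 6 to 8 weeks, and all groups were of this strain. The macrophages were gated as F4/80+CD11b+, so both groups can hold resident Kupffer cells, recruited monocyte-derived macrophages and any other cell that carries both surface proteins. Whether each library had its own mice, or pooled ones, is stated in neither the labels nor the methods. Each p-value therefore reflects spread between libraries, part or all of which may be technical.

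Kupffer cells sit in the liver sinusoids, where they clear particles, microbes and dying cells from the blood. Monocyte-derived macrophages enter the organ after injury. After PHx the remaining hepatocytes re-enter the cell cycle, and macrophages are known as a source of cytokines such as IL-6 and TNF in that response. Macrophages can divide themselves, and inflammatory activation is known to raise their glucose uptake and glycolysis. Levels are in CPM, the counts of a gene scaled to a common library total, with TMM factors that even out composition between libraries. A gene passed the test when its Benjamini-Hochberg adjusted p over all genes was under 0.05 in edgeR's quasi-likelihood fit of the 6 libraries.

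The deposited counts of the 6 libraries summed to between 55453145 and 61243389. Transcripts of the mitochondrial genome made up 2.37% to 3.72% of a library at 24 h and 3.01% to 4.53% at 0 h. Correlations of log2 CPM were 0.944 to 0.949 between libraries of the same time and 0.926 to 0.943 between times, across genes, which are not independent replicates. The label was checked against macrophage markers. Adgre1, which encodes F4/80, had 118, 113 and 145 CPM at 24 h, against 158, 118 and 117 CPM at 0 h, and Itgam, which encodes CD11b, had 58.1, 89.6 and 79.6 CPM at 24 h, against 33.6, 40.5 and 67.4 CPM at 0 h. Both had overlapping levels at the 2 times. The macrophage genes Spi1 and Cd68 were detected in every library, as were markers of neutrophils, hepatocytes, endothelial and erythroid cells, which are described at the end.

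At 24 h, genes of mitosis and cell division were lower in the sorted macrophages, and some genes of inflammatory signalling and glucose use, with the cell cycle inhibitor Cdkn1a, were higher. The study describes pathways of cell division and the cell cycle as enhanced after PHx, from an enrichment analysis of the 0 h and 24 h macrophages. The levels here went the other way, and the reason was not tested. Of the 18833 genes tested, 37 rose (0.196%) and 32 fell (0.17%). The log2 fold changes of the genes that rose ran between 0.98 and 3.63, apart from Mup1, which had no counts at 0 h. Those of the genes that fell ran between -1.41 and -5.74. The median over all genes tested was -0.02. For all 69 genes the libraries of the 2 times did not overlap. Across all genes, the 24 h libraries lay above the 0 h libraries without overlap for 1665 (8.84%) and below for 1690 (8.97%), and 1134 (6.02%) were higher and 1009 (5.36%) lower at p under 0.05 before adjustment.

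The number of calls depended on the tool and on single libraries. DESeq2 called 437 genes higher (2.32%) and 288 lower (1.53%), among them all 69. limma-voom called 67 higher (0.356%) and 36 lower (0.191%), with 36 of the 37 and 27 of the 32 among them. These shares over all genes are the ones to set beside the counts of each list below. The gene lists were chosen with earlier results of these data known. Leaving out 24 h replicate 1, 2 or 3 gave 72, 20 or 11 genes higher and 34, 18 or 19 lower. Leaving out 0 h replicate 1, 2 or 3 gave 11, 7 or 13 genes higher and 13, 13 or 16 lower. Cxcl13, Snai1, Nr4a2, Ppbp and Ptgs2 were called higher with any 1 library left out, and Birc5, Cdca3, Plk1, Cdc20, Ube2c, Esco2, Thrsp, Ccnb1, Rrm2 and ENSMUSG00002076111, which has no symbol in the table used, were called lower. The other 54 genes lost the call in at least 1 of these 6 fits, and none of the 69 changed direction in any of them. With the 3 libraries of 48 h in the same fit, 10 genes were higher (Cxcl13, Snai1, Nr4a2, Ppbp, Gm45837, Ramp2, Basp1, Tspan7, Cdkn1a and Slc2a1) and 6 lower (Birc5, Cdca3, Esco2, Thrsp, Ccna2 and Spc24).

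**Figure D1:**
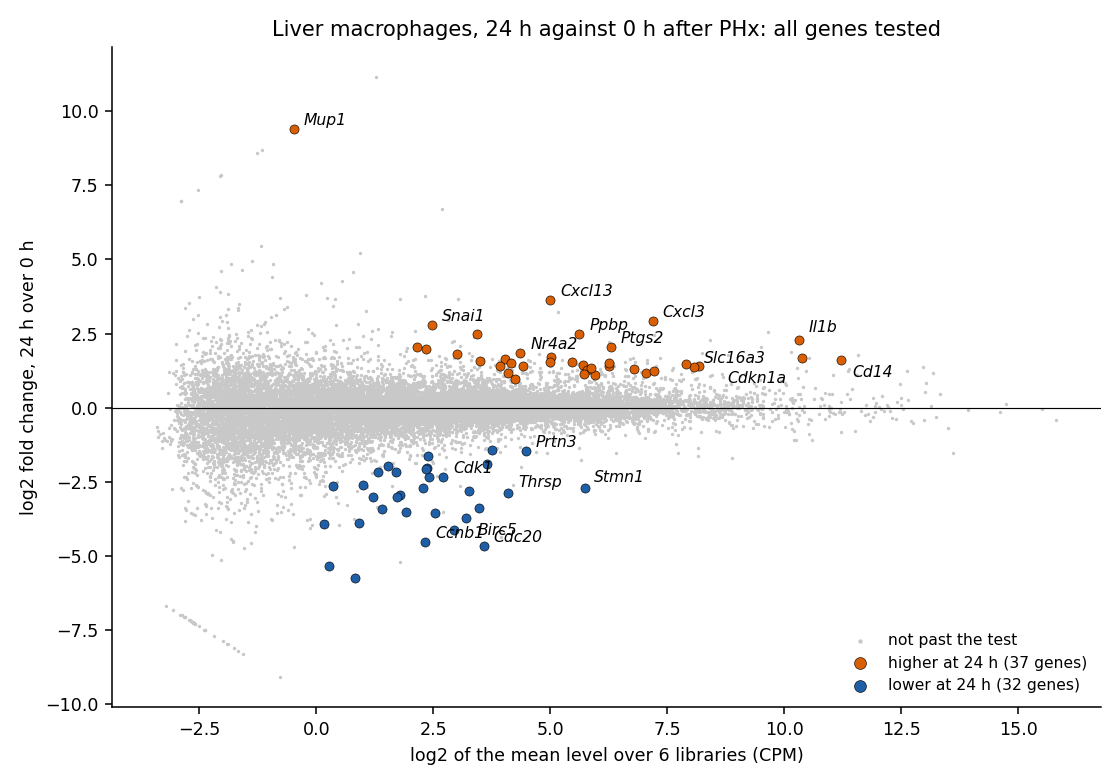
Each point is 1 of the 18833 genes tested, with the log2 of its mean CPM over the 6 libraries on the x axis and its log2 fold change (24 h over 0 h) on the y axis. The 37 genes that rose at 24 h (orange) lie mostly at middle and high levels and the 32 that fell (blue) mostly at low levels. The position of Mup1 is a fitted value that depends on the prior count, since it had no counts at 0 h.

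Mitotic genes made up the largest group of falls. Of 37 tested cyclins, mitotic kinases and factors of the anaphase-promoting complex (APC/C), the ubiquitin ligase that ends mitosis, 10 fell and 0 rose. The median log2 fold change of the list was -1.79, against -0.02 over all genes, and 22 of the 37 had every 24 h library below every 0 h library (8.97% of all genes). At an unadjusted p under 0.05 the counts were 22 lower and 0 higher, with DESeq2 20 and 0, and with limma-voom 9 and 0. Ccnb1 encodes cyclin B1, the partner that lets Cdk1 start mitosis. It had 0.349, 0.269 and 0.638 CPM at 24 h, against 6.8, 8.86 and 13.2 CPM at 0 h (fitted log2 fold change -4.52, SE 0.41, adjusted p = 0.00277 in edgeR). All 3 libraries of 24 h lay far under the lowest library of 0 h. Cdk1 itself, the mitotic kinase, had 1.64, 2.25 and 2.67 CPM at 24 h, against 9.22, 11.5 and 12.2 CPM at 0 h (fitted log2 fold change -2.33, SE 0.25, adjusted p = 0.00812 in edgeR). Ccna2, the cyclin of S and G2 phase, had 1.05, 1.43 and 1.45 CPM at 24 h, against 8.13, 5.32 and 11.9 CPM at 0 h (fitted log2 fold change -2.69, SE 0.34, adjusted p = 0.0156 in edgeR). In each of these genes 0 h replicate 3 was the highest library.

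Plk1, a kinase of centrosome maturation and chromosome segregation, had 0.645, 0.706 and 0.448 CPM at 24 h, against 6.97, 5.6 and 8.15 CPM at 0 h (fitted log2 fold change -3.52, SE 0.30, adjusted p = 0.00277 in edgeR). Cdc20, the activator of the APC/C, had 1.46, 0.824 and 0.448 CPM at 24 h, against 18.5, 26 and 24.8 CPM at 0 h (fitted log2 fold change -4.66, SE 0.40, adjusted p = 0.00277 in edgeR). Among the genes past the test with a mean of at least 10 CPM at 0 h, it had the largest fall. Ube2c, the ubiquitin-conjugating enzyme that works with the APC/C, had 1.5, 1.75 and 2.66 CPM at 24 h, against 20.6, 15.3 and 25.2 CPM at 0 h (fitted log2 fold change -3.37, SE 0.29, adjusted p = 0.00277 in edgeR). Cdca3, a trigger of mitotic entry, had 1.03, 0.538 and 0.931 CPM at 24 h, against 10.5, 14.4 and 18.7 CPM at 0 h (fitted log2 fold change -4.12, SE 0.33, adjusted p = 0.00277 in edgeR). The times were apart by more than their own spread in these 4 genes, and the calls held with any 1 library left out. Aurka, a kinase of the spindle poles, and Tpx2, which activates it, fell as well (log2 fold change -2.08 and -2.59, edgeR adjusted p = 0.0461 and 0.0461), as did the mitotic kinase Pbk (-3.4, adjusted p = 0.00899). Without 0 h replicate 1, 2 or 3 the list had 6, 6 or 7 genes lower, without 24 h replicate 1, 2 or 3 it had 10, 7 or 7. Cdk1 lost its call without 0 h replicate 2 (adjusted p = 0.0556), Pbk without 0 h replicate 1 or 2 and Ccna2 without 24 h replicate 2 or 3 or 0 h replicate 1 or 3 (adjusted p up to 0.0587 and 0.0927). Aurka kept its call only without 24 h replicate 1, and Tpx2 lost it in all 6 fits (adjusted p = 0.0246 to 0.169 and 0.0944 to 0.148).

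Not every gene linked to proliferation differed. Mki67, whose product Ki-67 marks cycling cells, had 6.13, 10.3 and 7.12 CPM at 24 h, against 8.61, 7.47 and 11.1 CPM at 0 h, with overlapping libraries (log2 fold change -0.21, SE 0.25, adjusted p = 0.848 in edgeR). Ube2s, another ubiquitin-conjugating enzyme of the APC/C, had 49.9, 53.7 and 58.9 CPM at 24 h, against 60.8, 55.1 and 51.9 CPM at 0 h. Fzr1, the second activator of the APC/C, had 33.6, 33.3 and 28.5 CPM at 24 h, against 23.7, 31.5 and 27.9 CPM at 0 h. Cks1b and Cks2, small partners of the cyclin-dependent kinases, did not pass the test either (log2 fold change -0.33 and -0.09, edgeR adjusted p = 0.649 and 0.913).

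RefSeq promoter windows (GRCm38.p6, 250 bases before to 50 after the annotated start) were matched by symbol for 17 of the 32 genes that fell and 28 of the 37 that rose, with the first window taken where a gene has several. The cell cycle genes homology region (CHR) is known from human and mouse cells as a site of the complexes that repress and activate mitotic genes, often beside CCAAT boxes, which bind the factor NF-Y. The letters TTTGAA of the CHR, on either strand, were in 10 of the 17 windows of genes that fell (58.8%), in 2 of the 28 of genes that rose (7.14%), in 12.9% of 11914 windows of genes tested and in 18.1% of all 27025 windows. CCAAT, on either strand, was in 76.5% of the windows of genes that fell, in 28.6% of those that rose, in 38.3% of those of genes tested and in 37.9% of all. Both motifs, with letters allowed to overlap, were in 9 of the 17 windows (52.9%), in 0 of the 28, in 5.25% of those of genes tested and in 7.12% of all. A match is a description of these letters and not a mapped site. The windows of 4 genes that fell and hold both motifs are shown, with TTTGAA and CCAAT or their reverse complements in capitals. They are Cdc20 (chr4:118437294-118437593, minus strand), Ube2c (chr2:164769679-164769978, plus strand), Plk1 (chr7:122159185-122159484, plus strand) and Cdk1 (chr10:69352863-69353162, minus strand), each read 5′ to 3′ along its gene.
Cdc20: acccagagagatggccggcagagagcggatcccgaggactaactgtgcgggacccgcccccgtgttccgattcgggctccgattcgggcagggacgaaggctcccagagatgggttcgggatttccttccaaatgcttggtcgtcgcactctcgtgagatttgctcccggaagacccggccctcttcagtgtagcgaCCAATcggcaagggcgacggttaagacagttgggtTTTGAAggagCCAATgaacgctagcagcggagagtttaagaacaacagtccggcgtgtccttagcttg
Ube2c: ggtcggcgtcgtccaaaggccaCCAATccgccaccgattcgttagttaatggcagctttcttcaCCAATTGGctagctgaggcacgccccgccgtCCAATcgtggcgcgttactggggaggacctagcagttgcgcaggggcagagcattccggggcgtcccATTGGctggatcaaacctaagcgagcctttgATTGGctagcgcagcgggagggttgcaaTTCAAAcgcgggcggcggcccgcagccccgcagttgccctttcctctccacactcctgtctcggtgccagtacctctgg
Plk1: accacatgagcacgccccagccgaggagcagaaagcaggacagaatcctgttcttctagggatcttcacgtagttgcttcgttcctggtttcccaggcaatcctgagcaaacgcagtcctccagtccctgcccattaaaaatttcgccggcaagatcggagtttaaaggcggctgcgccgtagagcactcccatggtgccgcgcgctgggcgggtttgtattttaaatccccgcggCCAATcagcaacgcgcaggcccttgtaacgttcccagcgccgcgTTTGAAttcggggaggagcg
Cdk1: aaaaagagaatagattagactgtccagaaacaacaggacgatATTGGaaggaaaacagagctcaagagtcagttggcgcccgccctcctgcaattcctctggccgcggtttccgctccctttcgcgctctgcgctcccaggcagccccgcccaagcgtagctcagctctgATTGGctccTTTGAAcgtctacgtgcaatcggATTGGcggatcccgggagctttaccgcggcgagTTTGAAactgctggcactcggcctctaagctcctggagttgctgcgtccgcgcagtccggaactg
In Cdc20 the CHR letters began 18 bases before the start and lay between CCAAT boxes that began 53 and 8 bases before it. In Ube2c they began 29 bases before the start, in Plk1 30 bases after it, and Cdk1 had 2 copies, 71 and 15 bases before it.

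Chromosome attachment and cohesion followed the same direction. Of 44 tested genes of the chromosomal passenger complex, kinetochore and cohesin, 4 fell and 0 rose, the median log2 fold change was -1.76 and all 44 had a lower mean at 24 h. No library overlap below was seen for 29 of the 44. The list had 22 lower and 0 higher with DESeq2 (1.53% and 2.32% of all genes) and 7 and 0 with limma-voom (0.191% and 0.356%). At p under 0.05 before adjustment there were 28 and 0 (5.36% and 6.02% of all genes). Birc5, the survivin subunit of the passenger complex, had 1.36, 1.08 and 1.5 CPM at 24 h, against 14.4, 15 and 22 CPM at 0 h (fitted log2 fold change -3.7, SE 0.26, adjusted p = 0.00277 in edgeR). Its 24 h libraries lay close together and under every 0 h library. Cdca8, the borealin subunit, had 1.67, 2.17 and 2.21 CPM at 24 h, against 5.66, 9.7 and 9.32 CPM at 0 h (fitted log2 fold change -2.03, SE 0.28, adjusted p = 0.0217 in edgeR). Esco2, the acetyltransferase that fastens cohesin between sister chromatids, had 0.227, 0.202 and 0.276 CPM at 24 h, against 3.74, 2.98 and 3.8 CPM at 0 h (fitted log2 fold change -3.89, SE 0.35, adjusted p = 0.00277 in edgeR). Spc24, of the Ndc80 complex that binds microtubules at the kinetochore, had 3.62, 1.28 and 2.31 CPM at 24 h, against 15, 13.6 and 22 CPM at 0 h (fitted log2 fold change -2.81, SE 0.38, adjusted p = 0.0204 in edgeR), with 24 h replicate 1 the highest of its time. Cenpa, the centromeric histone, did not pass the test (6.55, 7.04 and 7.04 CPM at 24 h, against 12.4, 9.01 and 19 CPM at 0 h, adjusted p = 0.18 in edgeR). Leaving out 24 h replicate 1, 2 or 3 gave 6, 4 or 2 genes of the list lower, and leaving out 0 h replicate 1, 2 or 3 gave 3, 2 or 2. Cdca8 kept its call only without 0 h replicate 1, and Spc24 without 24 h replicate 1 or 2 (adjusted p up to 0.11 and 0.14).

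Among 29 tested mitotic kinesins and cytokinesis genes 3 fell and 0 rose, the median log2 fold change was -1.59 and 19 had no overlap below (8.97% of all genes). DESeq2 called 12 lower and limma-voom 3, neither called any higher, and at p under 0.05 before adjustment there were 17 lower and 0 higher. Stmn1, the microtubule-destabilising protein stathmin, had 11.3, 10.4 and 21 CPM at 24 h, against 88.2, 60.5 and 128 CPM at 0 h (fitted log2 fold change -2.7, SE 0.35, adjusted p = 0.0194 in edgeR). Kif20a, a kinesin of cytokinesis, had 0.924, 0.471 and 0.828 CPM at 24 h, against 4.85, 4.39 and 8.47 CPM at 0 h (fitted log2 fold change -2.99, SE 0.38, adjusted p = 0.0183 in edgeR). Knstrn, a spindle and kinetochore protein, had 1.13, 0.656 and 0.586 CPM at 24 h, against 6.4, 6.72 and 5.26 CPM at 0 h (fitted log2 fold change -2.95, SE 0.32, adjusted p = 0.00836 in edgeR). Tuba1b, an alpha tubulin of the same microtubules, did not pass the test and had 346, 304 and 279 CPM at 24 h, against 269.6, 322 and 295 CPM at 0 h (log2 change 0.07, edgeR adjusted p = 0.934). Without 0 h replicate 1, 2 or 3 the list had 0, 1 or 1 genes lower, and without 24 h replicate 1, 2 or 3 it had 2 each time. Kif20a kept its call only without 24 h replicate 1, Stmn1 without 24 h replicate 3 or 0 h replicate 2, and Knstrn lost it without 0 h replicate 1 or 2 (adjusted p up to 0.101, 0.0821 and 0.0587).

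The DNA replication and histone lists had medians nearer to 0. Rrm2, the regulated subunit of ribonucleotide reductase, which makes deoxyribonucleotides, had 1.73, 1.78 and 1.76 CPM at 24 h, against 8.11, 8.33 and 10.3 CPM at 0 h (fitted log2 fold change -2.34, SE 0.21, adjusted p = 0.00284 in edgeR), and its 24 h values were almost identical. It was the one gene past the test among 38 DNA polymerase, clamp and nucleotide supply genes, whose median log2 fold change was -0.66. There, 0 rose, DESeq2 called 8 lower and 0 higher, and 19 had no overlap below (8.97% of all genes). Pcna, the sliding clamp, had 48.1, 44 and 56.7 CPM at 24 h, against 55.9, 57.1 and 47.9 CPM at 0 h. Of 24 tested MCM helicase and origin factors, 0 fell and 0 rose in edgeR and in limma-voom, DESeq2 called 2 lower and 0 higher, and 9 were lower and 0 higher at p under 0.05 before adjustment (median -0.65). Mcm6, a subunit of the helicase, had 8.36, 7.58 and 7.09 CPM at 24 h, against 17.1, 13.3 and 18.3 CPM at 0 h (fitted log2 fold change -1.08, SE 0.19, adjusted p = 0.0608 in edgeR), without overlap. Of 16 tested histone genes 2 fell, the linker histone Hist1h1d (6.73, 3.88 and 5.21 CPM at 24 h, against 17.5, 26.3 and 15.7 CPM at 0 h, log2 change -1.91, edgeR adjusted p = 0.0292) and the H2A gene Hist1h2ac (3.15, 2.27 and 2.24 CPM at 24 h, against 7.96, 8.06 and 7.48 CPM at 0 h, log2 change -1.62, edgeR adjusted p = 0.0248). DESeq2 called 7 histone genes lower and 0 higher (median -1.07). Reads of histone genes may be shared with near-identical copies, so single members are uncertain. The histone list had 3 genes lower without 24 h replicate 1 and 0 without any other single library.

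Taking the 6 lists of replication and division as 1 set of 188 tested genes, each counted once, 20 fell and 0 rose, 177 had a lower mean at 24 h and the median log2 fold change was -1.09. Over all genes tested, 0.17% fell and 0.196% rose. Without overlap, 111 were below and 1 above, against 8.97% and 8.84% of all genes. The genes lower and higher numbered 71 and 0 with DESeq2 (1.53% and 2.32% of all genes), and 23 and 0 with limma-voom (0.191% and 0.356%). Without 24 h replicate 1, 2 or 3, 22, 14 or 12 were lower, and without 0 h replicate 1, 2 or 3, 10, 10 or 11. With the 48 h libraries in the fit 5 were lower. A further member of the fall, Cdkn3, a phosphatase that acts on cyclin-dependent kinases, was in none of these lists (1.12, 1.21 and 0.431 CPM at 24 h, against 9.75, 8.78 and 13.6 CPM at 0 h, log2 change -3.54, edgeR adjusted p = 0.00899), nor was Shcbp1, a protein of the mitotic midbody (0.0697, 0.101 and 0 CPM at 24 h, against 2.3, 1.49 and 3.31 CPM at 0 h, log2 change -5.32, adjusted p = 0.0352), for which 24 h replicate 3 had no counts. Cdkn3 lost the call without 0 h replicate 1 or 2, and Shcbp1 kept it only without 24 h replicate 3 (adjusted p up to 0.0576 and 0.144). Prtn3, the granule protease of neutrophil and monocyte precursors, fell too (11.5, 11.5 and 13 CPM at 24 h, against 28.1, 44.7 and 25.5 CPM at 0 h, log2 change -1.45, edgeR adjusted p = 0.0461), and it lost the call with any 1 library left out (adjusted p = 0.0596 to 0.192). Prtn3 is in the neutrophil list. Mpo, Elane and Ctsg, granule genes of that list named after their values were seen, did not pass the test (log2 fold change -1.41, -0.39 and -1.6). Of the 25 genes of the list, 15 had a higher and 10 a lower mean at 24 h, and the median log2 fold change was 0.25. The part of precursor cells in the falls was not tested.

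**Figure D2:**
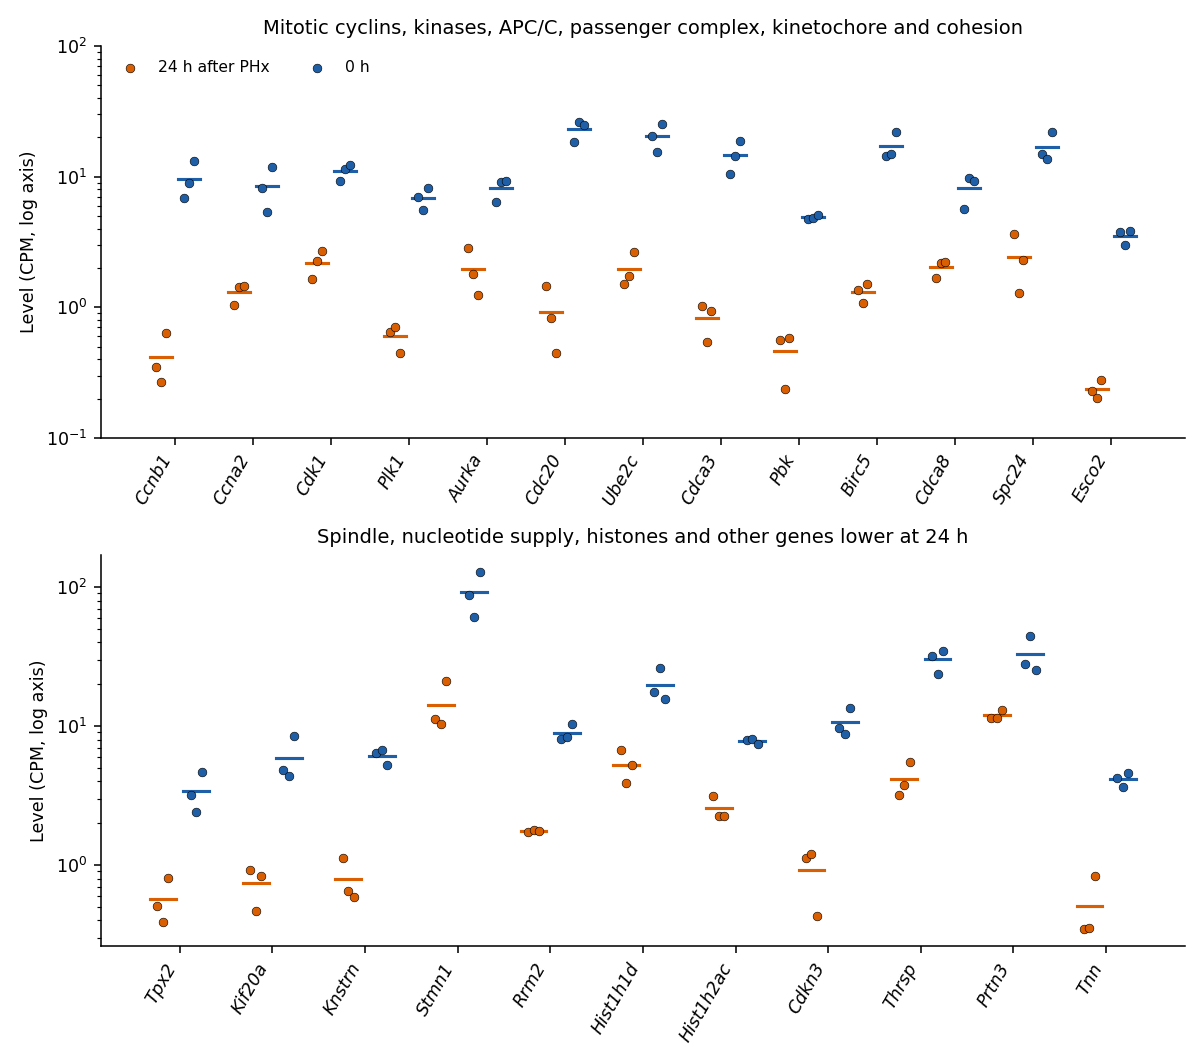
Level in CPM (log axis) of 24 genes that fell, with 1 point per library and a bar at the mean of each time, 24 h in orange left of 0 h in blue. In every gene shown the 3 libraries of 24 h lie under the 3 of 0 h, as for Cdc20 with at most 1.46 CPM at 24 h and at least 18.5 CPM at 0 h.

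Cdkn1a, which encodes the CDK inhibitor p21, had 1824, 2586 and 1659.6 CPM at 24 h, against 751, 565 and 569 CPM at 0 h (fitted log2 fold change 1.69, SE 0.23, adjusted p = 0.0229 in edgeR), so its lowest 24 h library lay well above its highest 0 h library. It was the 1 gene that passed the test among 21 CDK inhibitors and D cyclins (0 lower) and the 1 among 19 p53 targets (0 lower), whose medians were 0.20 and 0.23. The first was 0.07 without 24 h replicate 2 and 0.11 without 0 h replicate 2, and the second 0.02 without 24 h replicate 1 and 0.13 without 0 h replicate 2. Mxd1, a partner of MAX that opposes MYC, had 77.7, 87.9 and 86.4 CPM at 24 h, against 38.1, 38.3 and 41.9 CPM at 0 h (fitted log2 fold change 1.09, SE 0.15, adjusted p = 0.0202 in edgeR). Gadd45b, a stress-response gene, did not pass it (488, 513 and 442 CPM at 24 h, against 327, 171 and 175 CPM at 0 h, adjusted p = 0.126 in edgeR and 0.0016 in DESeq2). Cdkn1a and Mxd1 were called without 24 h replicate 1 and lost the call without any other single library (edgeR adjusted p = 0.0327 to 0.13 and 0.0329 to 0.112 over the 6 fits).

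Transcripts of several secreted inflammatory proteins rose, each given with its list. Il1b, the cytokine interleukin-1 beta, had 1790.5, 2015 and 2563 CPM at 24 h, against 470.3, 322 and 516 CPM at 0 h (fitted log2 fold change 2.28, SE 0.24, adjusted p = 0.00812 in edgeR). The lowest 24 h library had more than 3 times the highest 0 h library. Il1b lost its call only without 0 h replicate 1 (adjusted p = 0.0576). Of 18 genes of the IL-1 family and inflammasome it was the 1 that passed, with 0 lower and a median log2 fold change of 0.17. The median was 0.35 without 24 h replicate 1, 0.42 without 0 h replicate 2 and 0.10 without 24 h replicate 2, 0 h replicate 1 or 0 h replicate 3. Il1a, its sister cytokine, had 143, 232 and 377 CPM at 24 h, against 79.9, 29.1 and 27.6 CPM at 0 h (adjusted p = 0.0762 in edgeR and 0.00993 in DESeq2), and the receptor Il1r2 and the adaptors Pycard and Myd88 had overlapping libraries.

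Chemokines of the CXC family held 3 rises, of 19 CXC chemokines and receptors tested, and 0 fell (median log2 fold change 0.68). Without overlap, 8 lay above and 1 below, against 8.84% and 8.97% of all genes. Cxcl13, which attracts B cells, had 43.5, 49 and 85.2 CPM at 24 h, against 4.68, 4.98 and 4.67 CPM at 0 h (fitted log2 fold change 3.63, SE 0.28, adjusted p = 0.00277 in edgeR). Its 0 h libraries lay within a narrow band, far under the lowest 24 h library. Cxcl3, a ligand of the neutrophil receptor Cxcr2, had 161, 298 and 317 CPM at 24 h, against 39.5, 41.7 and 21.3 CPM at 0 h (fitted log2 fold change 2.92, SE 0.34, adjusted p = 0.0104 in edgeR). Ppbp, which encodes the platelet chemokine precursor of CXCL7, had 56.4, 91.8 and 102 CPM at 24 h, against 14.9, 15.5 and 14.7 CPM at 0 h (fitted log2 fold change 2.48, SE 0.23, adjusted p = 0.00321 in edgeR). Cxcl2 had 9091, 11935 and 13668 CPM at 24 h, against 6288, 4043 and 3099 CPM at 0 h, without overlap, but missed the test (adjusted p = 0.096 in edgeR, 6.06e-05 in DESeq2), and so did Cxcl10, the interferon-inducible ligand of Cxcr3 (152, 139 and 215 CPM at 24 h, against 73.5, 62 and 36.5 CPM at 0 h, adjusted p = 0.0648 and 4.21e-06). Without 24 h replicate 3, 0 h replicate 1 or 0 h replicate 2, 2 of the 3 were called, since Cxcl3 lost the call (adjusted p up to 0.0722).

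CC chemokines had the highest median of the inflammatory lists and no call. Of 18 tested, edgeR called 0 in either direction, 12 were higher and 1 lower at p under 0.05 before adjustment, 7 were higher and 1 lower in DESeq2, and limma-voom called 0. The median log2 fold change was 1.19, and 7 had no overlap above (8.84% of all genes). Ccl4 had 1567, 2208 and 3001 CPM at 24 h, against 1184, 648 and 310.4 CPM at 0 h, Ccl9 2343, 4803 and 3872 CPM at 24 h, against 2041, 1794 and 873 CPM at 0 h and Ccl2, the monocyte attractant, 1084, 2243 and 2009.7 CPM at 24 h, against 1246, 671 and 192 CPM at 0 h. Ccl2 overlapped between the times because 0 h replicate 1 was higher than 24 h replicate 1. Without 24 h replicate 1, 2 CC genes were called higher, and without any other single library 0.

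**Figure D3:**
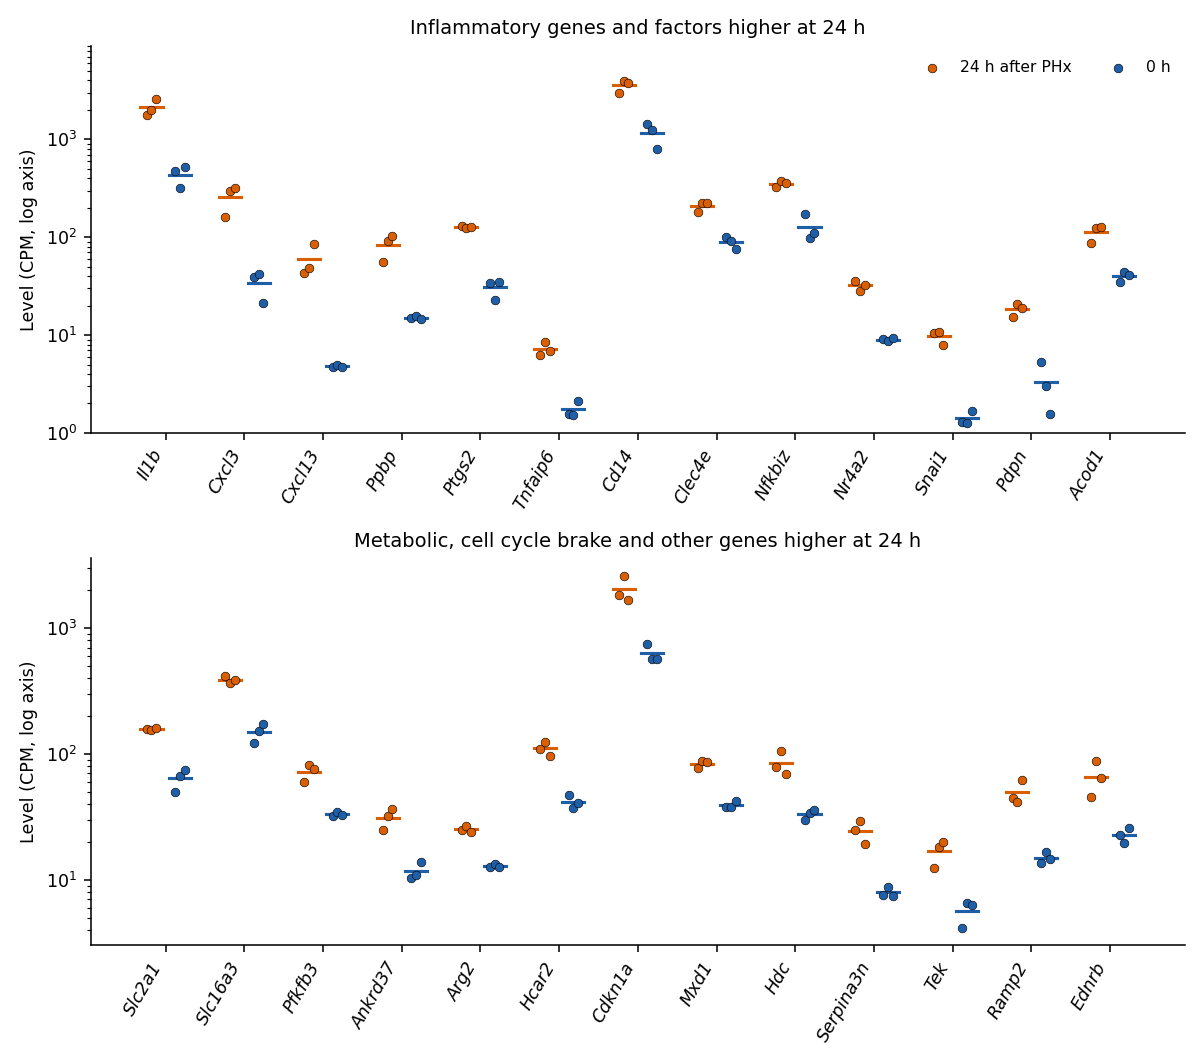
Level in CPM (log axis) of 26 genes that rose, with 1 point per library and a bar at the mean of each time, 24 h in orange left of 0 h in blue. The upper panel has genes of inflammation and transcription factors, the lower panel metabolic, cell cycle and other genes. No gene shown has overlapping times, as for Ptgs2 with at least 125 CPM at 24 h and at most 34.9 CPM at 0 h.

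Transcripts of a prostaglandin synthesis enzyme, an arginase and surface receptors were among the rises as well. Of 18 genes of prostaglandin, leukotriene and nitric oxide synthesis, 2 rose (Ptgs2 and Arg2) and 0 fell, against 0.196% and 0.17% of all genes. The median log2 fold change of that list was 0.06 (-0.04 to 0.25 with 1 library left out). Ptgs2, the inducible cyclooxygenase of prostaglandin synthesis, had 131, 125 and 127 CPM at 24 h, against 34.3, 22.7 and 34.9 CPM at 0 h (fitted log2 fold change 2.06, SE 0.20, adjusted p = 0.00362 in edgeR). Its 24 h libraries lay within a few CPM of each other. Arg2, the mitochondrial arginase, had 24.9, 27 and 24.1 CPM at 24 h, against 12.6, 13.4 and 12.6 CPM at 0 h (fitted log2 fold change 0.98, SE 0.15, adjusted p = 0.0406 in edgeR), the smallest rise of the 37, and lost its call with any 1 library left out (adjusted p = 0.077 to 0.153). Arg1, the cytosolic arginase of reparative macrophages, had 904, 2681 and 1771 CPM at 24 h, against 419.9, 615 and 408 CPM at 0 h and missed the test (adjusted p = 0.0751 in edgeR and 3.29e-06 in DESeq2). Cd14, the co-receptor of lipopolysaccharide, had 2998, 3965 and 3792 CPM at 24 h, against 1427, 1254 and 805 CPM at 0 h (fitted log2 fold change 1.63, SE 0.25, adjusted p = 0.0406 in edgeR), while 0 of the other 19 Toll-like receptor and adaptor genes passed. Clec4e, the receptor Mincle for damaged cells and mycobacterial lipid, had 181, 226 and 223 CPM at 24 h, against 102, 91.9 and 75.2 CPM at 0 h (fitted log2 fold change 1.23, SE 0.18, adjusted p = 0.0304 in edgeR). Tnfaip6, the secreted anti-inflammatory protein TSG-6, had 6.27, 8.51 and 6.88 CPM at 24 h, against 1.57, 1.51 and 2.14 CPM at 0 h (fitted log2 fold change 2.05, SE 0.25, adjusted p = 0.0154 in edgeR) and was the 1 call of 19 TNF-related genes, of which 0 fell. Tnf itself had 341, 510.2 and 563 CPM at 24 h, against 197, 138 and 55.9 CPM at 0 h, without overlap (adjusted p = 0.106 in edgeR and 5.18e-05 in DESeq2). Cd14 and Clec4e kept the call only without 24 h replicate 1, and Tnfaip6 without 24 h replicate 1 or 0 h replicate 3 only (edgeR adjusted p = 0.0381 to 0.18, 0.0327 to 0.153 and 0.0253 to 0.0871).

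Of the transcription factors of these pathways, Nfkbiz, a nuclear modulator of NF-kappaB, had 326, 373 and 354 CPM at 24 h, against 173, 97 and 112 CPM at 0 h (fitted log2 fold change 1.47, SE 0.23, adjusted p = 0.0448 in edgeR) and kept the call only without 0 h replicate 1 among the 6 left-out fits (adjusted p = 0.0339 to 0.184). It was the 1 call among 16 NF-kappaB subunits and inhibitors, of which 0 fell and 10 had no overlap above (8.84% of all genes). DESeq2 called 5 of them higher and 0 lower (median 0.59). Nfkbia, the inhibitor that NF-kappaB induces, had 8914, 8607 and 9189 CPM at 24 h, against 5274, 3401 and 2616 CPM at 0 h (adjusted p = 0.096 in edgeR and 8.69e-05 in DESeq2). Nr4a2, an orphan nuclear receptor of the immediate-early class, had 35.7, 28.2 and 32.6 CPM at 24 h, against 9.03, 8.73 and 9.26 CPM at 0 h (fitted log2 fold change 1.83, SE 0.16, adjusted p = 0.00277 in edgeR). It was the 1 call of 22 AP-1, EGR, ATF3 and NR4A factors, of which 0 fell. The best-known of them, Fos, had 8159, 4028 and 4699 CPM at 24 h, against 13473, 6165 and 4670.4 CPM at 0 h, and Jun 1036, 669 and 898 CPM at 24 h, against 2388, 1255 and 807 CPM at 0 h, each with 0 h replicate 1 the highest library of the 6. Socs3, the feedback inhibitor of IL-6 signalling, and Il6 itself had log2 fold changes of 1.02 and 1.83 without overlap and did not pass (edgeR adjusted p = 0.124 and 0.216). Of 16 genes of the IL-6, IL-10 and IL-12 families edgeR and limma-voom called 0, with 6 higher and 0 lower at p under 0.05 before adjustment and 4 higher and 0 lower in DESeq2.

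Genes for transporters of glucose and lactate and for a regulator of glycolysis were higher at 24 h. Of 21 tested genes of glycolysis and glucose uptake 3 rose and 0 fell, and the median log2 fold change was 0.56. Without overlap, 13 lay above and 1 below, against 8.84% and 8.97% of all genes. DESeq2 called 8 higher and 0 lower. Slc2a1, the glucose transporter GLUT1, had 158, 154 and 159 CPM at 24 h, against 50.2, 66.9 and 74.8 CPM at 0 h (fitted log2 fold change 1.3, SE 0.18, adjusted p = 0.0248 in edgeR). Slc16a3, the lactate exporter MCT4, had 412, 364 and 387 CPM at 24 h, against 122, 152 and 172 CPM at 0 h (fitted log2 fold change 1.38, SE 0.18, adjusted p = 0.0194 in edgeR). Pfkfb3, whose product makes the activator of phosphofructokinase, had 59.9, 81.2 and 76 CPM at 24 h, against 32, 34.5 and 32.8 CPM at 0 h (fitted log2 fold change 1.13, SE 0.17, adjusted p = 0.0312 in edgeR). In all of them the 0 h libraries stayed under the lowest 24 h library. The glycolytic enzymes Aldoa, Eno1, Pkm and Ldha had log2 fold changes of 0.68, 0.62, 0.51 and 0.6 without overlap and did not pass (edgeR adjusted p = 0.164, 0.168, 0.285 and 0.319). The list had 3 calls without 24 h replicate 1, 1 without 0 h replicate 3 and 0 without 24 h replicate 2 or 3 or 0 h replicate 1 or 2 (adjusted p up to 0.125 for Slc2a1, 0.104 for Slc16a3 and 0.164 for Pfkfb3).

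Genes of the hypoxia-inducible factor (HIF) pathway overlap with these in biology, since HIF-1 is known to induce GLUT1 and MCT4. Of 20 tested HIF factors and targets 1 rose and 0 fell, with 9 higher and 0 lower in DESeq2 and a median of 0.63. Without overlap, 13 lay above and 0 below, against 8.84% and 8.97% of all genes. Ankrd37, a small HIF-1 target, had 24.8, 32.2 and 36.4 CPM at 24 h, against 10.3, 10.9 and 13.9 CPM at 0 h (fitted log2 fold change 1.41, SE 0.20, adjusted p = 0.0292 in edgeR). Hif1a, the regulated subunit, had 120.3, 145 and 132 CPM at 24 h, against 81.3, 65.6 and 84.1 CPM at 0 h (adjusted p = 0.0925 in edgeR and 0.00137 in DESeq2). Bnip3, a mitophagy receptor that HIF-1 induces, had 87.3, 89.8 and 82.9 CPM at 24 h, against 39.6, 38.2 and 68 CPM at 0 h, whereas Ndrg1 had overlapping libraries (log2 fold change 0.00). The list had 2 calls without 24 h replicate 1, 1 without 0 h replicate 3 and 0 without any other single library. Genes of the respiratory chain had no call. Of 31 nuclear oxidative phosphorylation genes edgeR, DESeq2 and limma-voom called 0, 0 had an unadjusted p under 0.05, and the median was -0.01 (-0.04 to 0.02 with 1 library left out). The same counts held for 30 cytosolic ribosomal protein genes (median -0.01, and -0.05 to 0.05 with 1 library left out).

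The core letters ACGTG of the hypoxia response element, on either strand, were in 11 of the 28 promoter windows of genes that rose (39.3%), in 23.5% of the 17 of genes that fell, in 24.6% of those of genes tested and in 19.7% of all. The windows of both membrane transporters are given, with these letters in capitals, Slc2a1 at chr4:119108495-119108794 and Slc16a3 at chr11:120948817-120949116 (GRCm38.p6, both plus strand).
Slc2a1: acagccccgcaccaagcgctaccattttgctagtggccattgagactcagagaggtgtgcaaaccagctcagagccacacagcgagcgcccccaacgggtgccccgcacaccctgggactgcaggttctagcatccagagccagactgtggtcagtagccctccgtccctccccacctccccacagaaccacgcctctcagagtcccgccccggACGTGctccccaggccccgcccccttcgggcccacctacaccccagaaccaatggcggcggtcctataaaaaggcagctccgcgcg
Slc16a3: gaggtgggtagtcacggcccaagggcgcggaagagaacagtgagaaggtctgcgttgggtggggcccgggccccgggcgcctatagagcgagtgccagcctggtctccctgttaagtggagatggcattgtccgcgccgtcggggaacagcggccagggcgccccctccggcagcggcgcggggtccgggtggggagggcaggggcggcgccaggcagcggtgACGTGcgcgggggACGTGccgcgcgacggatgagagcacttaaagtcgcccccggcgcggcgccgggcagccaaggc
The letters began 36 bases before the start of Slc2a1, and 27 and 14 bases before that of Slc16a3. The kappaB site by its usual consensus was in 7.14% of the windows of genes that rose, in 11.8% of those of genes that fell and in 5.07% of those of genes tested.

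**Figure D4:**
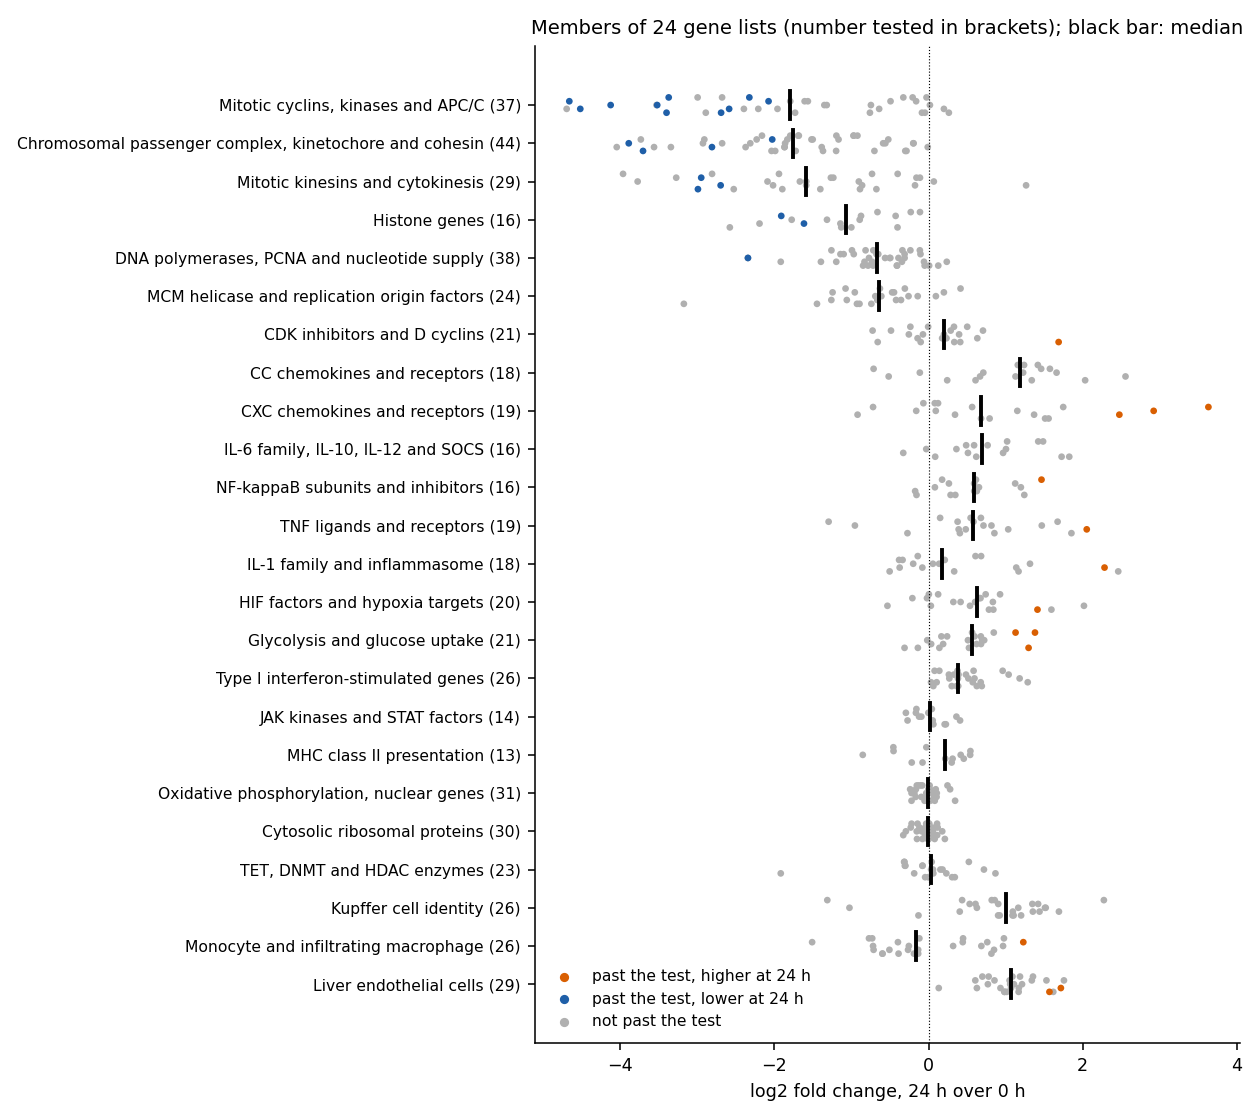
Log2 fold changes (24 h over 0 h, x axis) of the tested members of 24 gene lists (rows, number tested in brackets), with a black bar at each median. Orange and blue points passed the test, higher and lower at 24 h, and grey points did not. The division lists at the top lie to the left (medians between -0.65 and -1.79), the chemokine, hypoxia and glycolysis lists to the right, and the oxidative phosphorylation and ribosomal lists close to 0.

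Interferon and STAT genes did not pass the test in edgeR. Of 26 type I interferon-stimulated genes all 26 had a higher mean at 24 h (median log2 fold change 0.39), yet edgeR called 0, DESeq2 3 higher and 0 lower, limma-voom 1 higher and 0 lower, and 7 were higher and 0 lower at p under 0.05 before adjustment. The median was 0.72 without 0 h replicate 2 and 0.24 without 0 h replicate 3. Ifit1 had 15.3, 13.5 and 13 CPM at 24 h, against 9.03, 12.5 and 4.39 CPM at 0 h. Of 14 JAK and STAT genes edgeR, DESeq2 and limma-voom called 0, and 1 was higher and 0 lower at p under 0.05 before adjustment. Stat3, which carries the IL-6 signal, had 143, 151 and 104 CPM at 24 h, against 101, 120.0 and 120.3 CPM at 0 h, with overlap. Irf1, an interferon-induced transcription factor, had 37.5, 50.3 and 49.99 CPM at 24 h, against 27, 28.6 and 19.6 CPM at 0 h, without overlap (adjusted p = 0.114 in edgeR and 0.00565 in DESeq2). Of 21 genes of the interferon-gamma receptor, the IRFs and interferon-inducible GTPases edgeR and limma-voom called 0, DESeq2 1 higher and 0 lower, and 1 was higher and 3 lower at p under 0.05 before adjustment. Of 13 MHC class II genes edgeR, DESeq2 and limma-voom called 0, with 1 higher and 0 lower at p under 0.05 before adjustment. The shares of all genes were 6.02% higher and 5.36% lower at that p, and 2.32% and 1.53% in DESeq2.

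Tet2, the DNA dioxygenase that the study followed, had 19.3, 31.6 and 17 CPM at 24 h, against 17.8, 17.3 and 22.8 CPM at 0 h (fitted log2 fold change 0.23, SE 0.25, adjusted p = 0.821 in edgeR), and its highest library was 24 h replicate 2. Tet3 had 22.7, 27.2 and 18.6 CPM at 24 h, against 19.5, 20.2 and 21.9 CPM at 0 h and Tet1 0.401, 0.202 and 0.466 CPM at 24 h, against 0.387, 0.497 and 0.218 CPM at 0 h. The histone deacetylases Hdac1 and Hdac2 had log2 fold changes of 0.03 and -0.08. Of 23 TET, DNMT, HDAC and related enzymes edgeR and limma-voom called 0, DESeq2 1 higher and 1 lower, and 3 were higher and 1 lower at p under 0.05 before adjustment. Over all genes DESeq2 called 2.32% higher and 1.53% lower, and 6.02% and 5.36% had such a p. Whether counts this small differ from those shares was not tested. The DESeq2 call upward was Kdm6b, a histone demethylase of inflammatory macrophages (66.5, 94 and 64.7 CPM at 24 h, against 38.6, 40.2 and 44.6 CPM at 0 h, adjusted p = 0.096 in edgeR and 0.00244 in DESeq2). The call downward was Uhrf1, which brings Dnmt1 to newly replicated DNA and was named after its values were seen (1.01, 1.03 and 1.55 CPM at 24 h, against 3.78, 3.21 and 6.58 CPM at 0 h, adjusted p = 0.0691 and 0.000247).

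Growth factors known to act on the regenerating liver did not pass the test either. Of 17 hepatocyte growth factors and EGF family genes edgeR called 0, DESeq2 4 higher and 0 lower, limma-voom 2 higher and 0 lower, and 5 were higher and 0 lower at p under 0.05 before adjustment. Hgf, the main mitogen of hepatocytes, had 4.46, 2.87 and 2.64 CPM at 24 h, against 5.49, 3.2 and 3.36 CPM at 0 h, with overlap. Hbegf, a ligand of the EGF receptor, had 28, 58.7 and 54.9 CPM at 24 h, against 20.02, 20.7 and 12.4 CPM at 0 h, and Plaur, the urokinase receptor, 463, 484 and 439 CPM at 24 h, against 223, 259.6 and 178 CPM at 0 h, both without overlap (edgeR adjusted p = 0.0976 and 0.0575, DESeq2 0.00047 and 5.82e-06). Areg, another EGF receptor ligand, named after its values were seen, had 12.4, 15.4 and 24.4 CPM at 24 h, against 2.89, 5.73 and 1.41 CPM at 0 h (adjusted p = 0.0766 and 9.73e-06). Of 20 angiogenic factors edgeR called 0, DESeq2 4 higher and 0 lower, limma-voom 1 and 0, with 7 higher and 0 lower at p under 0.05 before adjustment (median 0.63). Over all genes, 2.32% were higher and 1.53% lower in DESeq2, and 0.356% and 0.191% in limma-voom. Before adjustment these shares were 6.02% and 5.36%. Vegfa, the main factor for endothelial cells, had 11.3, 16.1 and 13.4 CPM at 24 h, against 8.81, 6.67 and 11.3 CPM at 0 h, with overlap, and Wnt2, a ligand known from sinusoidal endothelium, 12.6, 10.5 and 21.4 CPM at 24 h, against 4.33, 6.43 and 3.73 CPM at 0 h, without it (adjusted p = 0.0751 and 0.000146).

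Programmes of resting and reparative macrophages were mixed. Of 24 reparative and lipid-associated macrophage genes edgeR and limma-voom called 0, DESeq2 4 higher and 2 lower, and 5 were higher and 3 lower at p under 0.05 before adjustment. Chil3, the lectin Ym1, had 9406, 4992 and 5047 CPM at 24 h, against 20206, 30622 and 4573 CPM at 0 h. Its 0 h replicates 1 and 2 lay above every 24 h library, and 0 h replicate 3 lay under them. Spp1, osteopontin, had 2477, 5468 and 4352 CPM at 24 h, against 1532, 2556 and 1625 CPM at 0 h, and its 0 h replicate 2 passed 24 h replicate 1. Of 24 efferocytosis and complement genes edgeR and limma-voom called 0, DESeq2 4 higher and 1 lower, with 7 higher and 1 lower at p under 0.05 before adjustment (median 0.37). C1qa, a chain of the first complement component, had 656, 851 and 1019.6 CPM at 24 h, against 615, 366 and 552 CPM at 0 h. Of 24 iron and heme genes edgeR and limma-voom called 0, DESeq2 1 higher and 0 lower, with 6 higher and 0 lower at p under 0.05 before adjustment (median 0.19). Of 15 heat-shock chaperones edgeR and limma-voom called 0, DESeq2 3 higher and 0 lower, with 7 and 0 at p under 0.05 before adjustment (median 0.48). Hsp90ab1, the constitutive HSP90, had 1351, 1448 and 1156 CPM at 24 h, against 770.3, 757 and 818 CPM at 0 h (adjusted p = 0.112 in edgeR and 0.000552 in DESeq2). Of 27 lysosomal acidification and cathepsin genes edgeR, DESeq2 and limma-voom called 0, with 1 higher and 2 lower at p under 0.05 before adjustment. For all genes these shares were 6.02% higher and 5.36% lower before adjustment, and 2.32% and 1.53% in DESeq2.

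The other genes that passed the test do not share 1 list. Thrsp, a regulator of fatty acid synthesis, fell in every comparison with a library left out (3.17, 3.78 and 5.48 CPM at 24 h, against 32.2, 23.9 and 34.6 CPM at 0 h, fitted log2 fold change -2.87, SE 0.26, adjusted p = 0.00277 in edgeR). The synthesis genes themselves did not pass, with Acly, which makes cytosolic acetyl-CoA, at 46.8, 46.1 and 44.7 CPM at 24 h, against 49.7, 45.3 and 66.6 CPM at 0 h. Snai1, the repressor known from epithelial-mesenchymal transition, had 10.5, 10.8 and 7.88 CPM at 24 h, against 1.29, 1.28 and 1.66 CPM at 0 h (fitted log2 fold change 2.79, SE 0.24, adjusted p = 0.00277 in edgeR). Pdpn, the membrane ligand podoplanin, had 15.3, 20.9 and 18.8 CPM at 24 h, against 5.31, 3.05 and 1.56 CPM at 0 h (fitted log2 fold change 2.47, SE 0.39, adjusted p = 0.0461 in edgeR). Hcar2, the receptor for nicotinic acid and beta-hydroxybutyrate, had 109.8, 125 and 96.7 CPM at 24 h, against 46.8, 37.1 and 40.9 CPM at 0 h (fitted log2 fold change 1.41, SE 0.17, adjusted p = 0.0135 in edgeR), and Acod1, which makes itaconate, had 87, 124 and 128 CPM at 24 h, against 34.8, 44.5 and 40.6 CPM at 0 h (fitted log2 fold change 1.5, SE 0.20, adjusted p = 0.0194 in edgeR). Basp1, a membrane-associated signalling protein, had 385, 412 and 460.0 CPM at 24 h, against 183, 130.3 and 156 CPM at 0 h (fitted log2 fold change 1.42, SE 0.18, adjusted p = 0.0188 in edgeR). Pde4b, a phosphodiesterase that degrades cyclic AMP, had 179, 194 and 174 CPM at 24 h, against 82.1, 70.5 and 87.5 CPM at 0 h (fitted log2 fold change 1.19, SE 0.16, adjusted p = 0.0194 in edgeR). Hdc, which makes histamine, had 78.7, 105 and 68.7 CPM at 24 h, against 29.8, 34.2 and 35.8 CPM at 0 h (fitted log2 fold change 1.34, SE 0.19, adjusted p = 0.0292 in edgeR). Of these, Pdpn was called only without 0 h replicate 1 and Acod1, Basp1, Pde4b and Hdc only without 24 h replicate 1, while Hcar2 lost its call without any of the 0 h libraries (adjusted p up to 0.187, 0.105, 0.101, 0.104, 0.148 and 0.0858).

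Serpina3n, an acute-phase protease inhibitor, had 24.9, 29.6 and 19.3 CPM at 24 h, against 7.6, 8.83 and 7.43 CPM at 0 h (fitted log2 fold change 1.63, SE 0.20, adjusted p = 0.0156 in edgeR) and lost its call without any of the 0 h libraries (adjusted p up to 0.0914). Mup1, a major urinary protein of hepatocytes, had 43, 67 and 141 counts in the 24 h libraries and none at 0 h, so against a floor of 3 counts in each 0 h library its mean was at least 26.0-fold higher (edgeR adjusted p = 0.0352). It kept the call only without 24 h replicate 1 (adjusted p up to 0.197), and its reads may be shared with near-identical Mup copies. The remaining genes that rose were the tubulin glutamylase Ttll7, the secreted protein Dmkn, the tetraspanin Tspan7, the purine transporter Slc43a3, the complement regulator Cd55, the scaffold protein Slc9a3r2, the endothelin receptor Ednrb, and Gm45837 and ENSMUSG00000121069, with log2 fold changes between 1.18 and 1.99. Those that fell were the tenascin Tnn, the ubiquitin ligase Neurl1b, Evi2, Gm44860, Gm11223, Gm14794, ENSMUSG00000120667 and ENSMUSG00002076111, between -1.41 and -5.74. Of these 17, Gm45837 lost its call only without 0 h replicate 2 and ENSMUSG00002076111 kept it in all 6 fits. The other 15 lost it in 3 to 6 of them.

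Marker lists of the cells that the gate could hold differed in level between the times. In bulk RNA, fewer cells of a type and less RNA per cell cannot be told apart. The 27 Kupffer cell genes summed to 2183 to 2878 CPM at 24 h and 692 to 1476 CPM at 0 h, without overlap. Of 26 tested, edgeR called 0, DESeq2 14 higher and 0 lower, limma-voom 2 higher and 0 lower, and 18 were higher and 0 lower at p under 0.05 before adjustment. The median log2 fold change was 1.01, and 17 had every 24 h library above every 0 h library (8.84% of all genes). Clec4f, the Kupffer cell lectin, had 373, 329 and 397 CPM at 24 h, against 140.2, 64.7 and 273 CPM at 0 h, and Marco, a scavenger receptor, 661, 454 and 582 CPM at 24 h, against 84.9, 57.4 and 209 CPM at 0 h (edgeR adjusted p = 0.304 and 0.0722). In both genes 0 h replicate 2 was the lowest library. Without 24 h replicate 1 or 0 h replicate 3, 1 gene of the list was called higher. The 26 genes of monocytes and infiltrating macrophages overlapped in their sum (55495 to 108562 CPM at 24 h and 77542 to 121857 CPM at 0 h). Lyz2 weighs heavily in it. It was the most counted gene in all 6 libraries but 24 h replicate 2, with 4.63% to 7.04% of all counts there. In edgeR 1 of 26 was called higher (Clec4e) and 0 lower, in DESeq2 4 and 2. At p under 0.05 before adjustment 7 were higher and 5 lower. A lower mean at 24 h was seen for 16, and the median log2 fold change was -0.16. Ly6c2 had 561, 249 and 320.0 CPM at 24 h, against 538, 784 and 387 CPM at 0 h.

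Of the lists of other cells, that of endothelial markers had the most members without overlap. Its 29 genes summed to 1024 to 1629 CPM at 24 h and 666 to 777 CPM at 0 h. All 29 had a higher mean at 24 h, 27 had no overlap above (8.84% of all genes), and the median log2 fold change was 1.07. Of the 29, edgeR called 2 higher and 0 lower, DESeq2 22 and 0, and limma-voom 4 and 0. The calls were Ramp2, a co-receptor for adrenomedullin (44.3, 41.9 and 62.1 CPM at 24 h, against 13.7, 16.8 and 14.6 CPM at 0 h, fitted log2 fold change 1.72, SE 0.20, adjusted p = 0.0101 in edgeR), and Tek, the receptor TIE2 (12.5, 18.4 and 19.8 CPM at 24 h, against 4.17, 6.61 and 6.31 CPM at 0 h, fitted log2 fold change 1.57, SE 0.25, adjusted p = 0.0488 in edgeR). None of the 29 was at 0 in all libraries, and Clec4g, a lectin of sinusoidal endothelium, had 79.4, 64.7 and 151 CPM at 24 h, against 52.5, 49.9 and 36.3 CPM at 0 h. Leaving out 24 h replicate 1, 2 or 3 gave 6, 1 or 1 calls and leaving out any 0 h library 0 (Ramp2 and Tek at adjusted p up to 0.0747 and 0.197). Whether endothelial RNA has a part in the rises described above was not tested.

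Most other marker lists overlapped between the times in their summed level. Not so the 16 cholangiocyte genes, at 2949 to 5612 CPM at 24 h and 1825 to 2879 CPM at 0 h. Spp1 made up most of that sum, with 2477 to 5468 CPM at 24 h and 1532 to 2556 CPM at 0 h. The 19 dendritic cell genes were also apart, at 263 to 296 CPM at 24 h and 218 to 247 CPM at 0 h. Of either list edgeR called 0 genes. The 25 neutrophil genes summed to 8914 to 15600 CPM at 24 h and 5371 to 13332 CPM at 0 h, with 0 called higher, 1 called lower (Prtn3) and 7 higher and 1 lower in DESeq2. Without overlap, 10 lay above and 2 below, against 8.84% and 8.97% of all genes. At p under 0.05 before adjustment 11 were higher and 2 lower (6.02% and 5.36% of all genes). S100a9 had 1594, 1553 and 2824 CPM at 24 h, against 617, 1188 and 707 CPM at 0 h (adjusted p = 0.151 in edgeR and 0.00218 in DESeq2). Without 24 h replicate 1, 3 were called higher and 0 lower. The 20 platelet genes, among which Ppbp is counted, summed to 587 to 1264 CPM at 24 h and 271 to 675 CPM at 0 h, with a median log2 fold change of -0.43 over the 18 tested, of which Ppbp was called higher and 0 lower. That median was -0.67 without 0 h replicate 1 and turned to 0.30 without 0 h replicate 3. Pf4, the other abundant platelet chemokine, had 434, 934 and 1017 CPM at 24 h, against 589.8, 336 and 147 CPM at 0 h. The 18 erythroid genes summed to 7640.2 to 49356 CPM at 24 h and 7385 to 16290.4 CPM at 0 h, and 24 h replicate 3 was the highest, with 21955 CPM of the haemoglobin gene Hba-a1 against at most 7826 CPM at 0 h. The 28 hepatocyte genes summed to 3750 to 8192 CPM at 24 h and 4240 to 8192 CPM at 0 h, and Alb had 309, 450.2 and 574 CPM at 24 h, against 379, 315 and 288 CPM at 0 h. Of the basophil, mast cell and eosinophil list, among which Hdc is counted, 9 of 20 genes were too low to be tested, the basophil protease Mcpt8 and the receptor chain Fcer1a among them. That list summed to 153 to 184 CPM at 24 h and 128 to 131 CPM at 0 h, without overlap. Hdc alone set that order, since without it the list summed to 85.7, 79.5 and 84.7 CPM at 24 h and 98.7, 94.6 and 95.4 CPM at 0 h, lower at 24 h without overlap. Ear2, an eosinophil-associated ribonuclease, made up most of the sum without Hdc. It had 65.9, 56.6 and 59.4 CPM at 24 h, against 89, 79.7 and 81.1 CPM at 0 h. The single genes were mixed. Of the 11 tested, 3 lay above without overlap and 1 below (Ear2), against 8.84% and 8.97% of all genes. At p under 0.05 before adjustment 5 were higher and 1 lower (6.02% and 5.36% of all genes), and the median log2 fold change was 0.95. The part of these cells in the results was not tested.

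**Figure D5:**
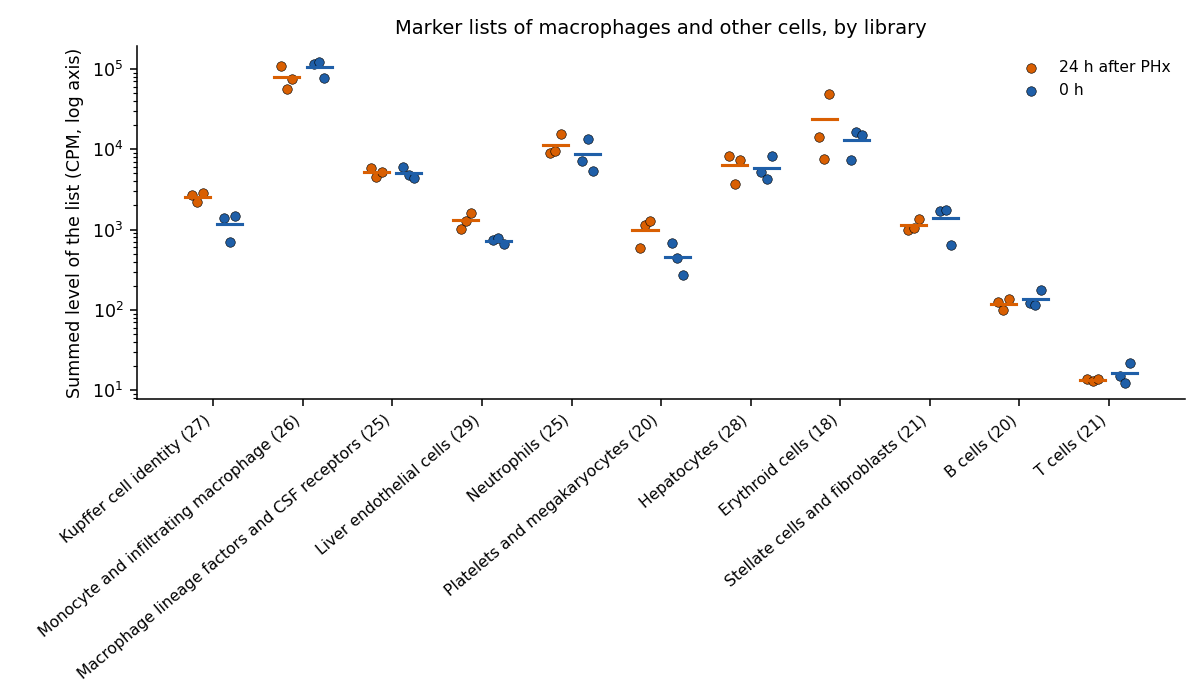
Summed level in CPM (log axis) of 11 marker lists (number of genes in brackets) in each library, 24 h in orange left of 0 h in blue, with a bar at the mean of each time. The Kupffer and endothelial lists are higher in all 24 h libraries, and the other lists overlap between the times.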

How the data were processed

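Sorted macrophages were sequenced by the study as paired-end 150-base reads from libraries made with a dUTP strand-marking kit. The deposited table holds estimated counts per gene, made by the authors with CASAVA 1.8, HISAT2 2.0.5 and featureCounts 1.5.0-p3, as the submitters' processing notes list them. For the genome build and the strand setting of counting, the sources used here give nothing, so reads of overlapping and antisense genes cannot be told apart. The values were used unnormalized, and any fractional part was dropped before the fits. Of 56691 gene IDs, 52073 had a symbol. In each of the 6 libraries 44.9% to 47.6% of the values between 4 and 40 were multiples of 4, more than the 1 in 4 of evenly spread values, and whether the counts hold fewer independent reads than their totals state was not tested.

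Libraries were grouped by their time labels. Counts of the 6 libraries were filtered with filterByExpr (minimum count 10), scaled by TMM and fitted with edgeR 4.0.16 (quasi-likelihood test, R 4.3.3) with time as the only term. DESeq2 1.42.0 and limma-voom (limma 3.58.1), other scalings and filters, a replicate block, all 9 libraries in 1 fit, counts divided by 4, thinned counts and leaving out each library were the alternatives, and the fits were tested on simulated data. The gene lists were chosen with earlier results of these data known, and lists are given as counts and medians without a set test. Genes were named by a fixed rule: the 20 largest rises and the 20 largest falls past the test whose higher time averaged 10 CPM or more without overlap, up to 8 members of a list past the test by p and up to 4 others by level, the genes the study names, and the 5 most abundant genes of each marker list. The remaining genes past the test, and Mpo, Elane, Ctsg, Areg and Uhrf1, were named after their values were seen. Promoter windows came from RefSeq (GRCm38.p6), and their motif letters were searched on both strands.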

Additional observations from a re-analysis of the deposited data

How the results depend on the processing

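No gene past the test at 24 h against 0 h changed direction under any alternative run. Counts of calls moved by more than 1.5 times under several. The genes higher and lower numbered 102 and 57 with at least 10 counts in every library, 437 and 288 with DESeq2, 97 and 67 with counts divided by 4, 10 and 6 with all 9 libraries in 1 fit, and 7 and 14 at an adjusted p under 0.01. Without a filter on low counts 73 were higher and with limma-voom 67. Leaving out 1 library gave 7 to 72 higher and 13 to 34 lower, and the cause was not tested. Leaving out a library also leaves a time with fewer samples. Of single genes, 372 results lost the threshold in an alternative and kept their direction. With the replicate number as a block, 49 genes were higher and 36 lower, of which 26 and 26 had been called without it. Deviations of same-numbered libraries from their time's mean had correlations of -0.02, 0.07 and 0.01 across genes. These low values do not show pairs, and they cannot exclude a batch shared by same-numbered libraries. Of the 32 genes that fell, 20 had a mean under 10 CPM at 0 h, where few counts limit the precision of the 24 h values.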
